A study of Mus musculus with 4 samples.

Results

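Cell junctions hold the intestinal epithelium together, and the genes described here are the claudins, the zonula occludens scaffold genes, the connexins, the desmosomal genes and a small set of other junction genes, chosen by gene name on a whole mouse genome array. The names taken were those beginning Cldn, Tjp, Gja, Gjb, Gjc, Dsg, Dsc and Pkp followed by a number, and Ocln, Cdh1, Cdh17, Jup, Dsp, F11r, Marveld2 and Marveld3. Described here are 55 of the 28632 gene names on the array, measured by 81 probes. The tested material was organoids, the closed epithelial structures that grew for 1 week in Matrigel with EGF, R-spondin and Noggin. It was set against freshly isolated crypts, the epithelial pits of the small intestine that hold the stem cells, taken from the same 2 mice. No strain, genotype or age of the mice is given in the sources used here, and both tissues of a mouse came from 1 crypt preparation that was divided. Organoid and crypt RNA of a mouse were hybridised together on 1 array and again with the dyes exchanged, so that 4 arrays gave n = 2 mice.

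Tight junctions seal the space between neighbouring epithelial cells near the lumen. Claudins form the seals and the selective pores, occludin and the other MARVEL proteins reinforce the sites where cells meet, and the Tjp scaffold proteins tie them to actin. Gap junctions are channels of connexins that let ions and small metabolites pass between cells. Desmosomes are spot-like anchors in which desmogleins and desmocollins join neighbouring cells, while plakoglobin, plakophilins and desmoplakin connect them to keratin filaments.

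Most of the junction genes that could be measured differed little between organoids and crypts, but several were read by dim probes. Ratios of such probes can be drawn toward 0 by background, and they count in the totals below. Of the 55 genes, 33 had a probe well above background in all 4 organoid channels or all 4 crypt channels and were tested. Of these, 4 passed the test, which is limma's moderated test on the 2 mouse means with a Benjamini-Hochberg adjusted p under 0.05 over all genes. Cldn8 rose, and Cldn7, Cdh17 and the brightest probe named for Gja5 fell. The other tested Gja5 probe did not differ in the same way (log2 ratio -0.01), so whether Gja5 itself fell is not settled. The 4 are 12.1% of the tested junction genes, beside 10.9% of all 15538 genes tested. By direction, 1 of 33 was higher and 3 of 33 were lower, beside 5.43% and 5.49% of all genes. At an unadjusted p under 0.05 there were 10 of 33, beside 27.6% of all genes. The share of calls was thus near that of all genes, and the list's size of 33 leaves it imprecise. The median log2 ratio of organoid over crypt was -0.15 for the junction genes and 0.02 for all genes, and the median absolute ratios were 0.24 and 0.20. In both mice 30 of the 33 (90.9%) stayed within 2-fold, as did 90.9% of all genes. The exceptions were Cldn8, Cldn4 and Gja5.

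The ratio had the same sign in both mice for 25 of the 33 junction genes (75.8%, against 68.9% of all genes). On all 4 arrays 14 pointed the same way, 3 higher and 11 lower in organoids (42.4%, 9.09% and 33.3%). Over all genes tested the same shares were 47.1%, 25.4% and 21.7%. Across the 33 genes the 2 mice's ratios correlated with r = 0.825, and those genes share their arrays within a mouse and are not independent replicates. Of 29 tested genes that did not pass, 28 had a 95% interval for the difference that lay within 2-fold either way. Cldn4 was the exception. The intervals of 6 such genes, Cldn15, Pkp3, Pkp2, Marveld3, Gjb2 and Gjb1, did not include 0, although none of the 6 passed after adjustment over all genes.

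**Figure D1:**
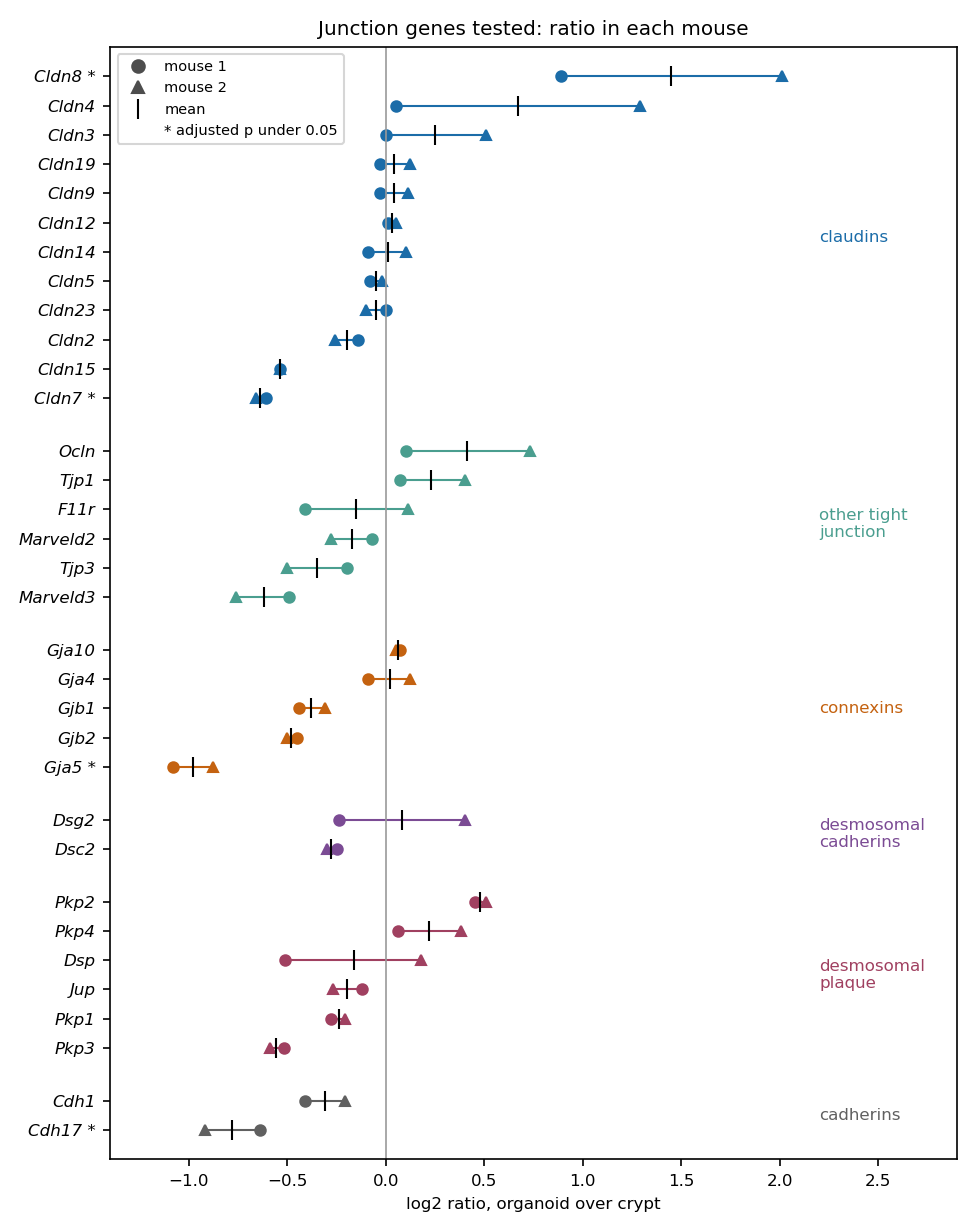
Log2 ratio of organoid over crypt (horizontal axis) for the 33 tested junction genes, ordered by role from claudins at the top to cadherins at the bottom. Circles are mouse 1, triangles are mouse 2, black ticks are means, and asterisks mark an adjusted p under 0.05. Cldn8 lies farthest to the right at 1.45 and Gja5 farthest to the left at -0.98, while most other genes lie close to 0.

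The remaining 22 genes gave no ratio. Of these, 17 had no probe well above background on any array in either tissue: Cldn1, Cldn10, Cldn16, Cldn17, Cldn18, Cldn22, Dsc1, Dsc3, Dsg1a, Dsg3, Dsg4, Gja1, Gja3, Gja6, Gjb5, Gjb6 and Gjc1. The other 5 passed in some channels only: Cldn6, Cldn11, Cldn13, Dsg1b and Dsg1c. Gja1 encodes the most widely distributed connexin of the body, and Dsg3 and Dsc3 encode desmosomal cadherins best known from stratified epithelium. For these genes the arrays give an upper limit of signal and no direction. Intensities given below are normalized probe intensities on a linear scale. They can be set against each other between organoids and crypts for 1 probe but not between genes. Statements below that the groups did not overlap compare these values without pairing them by mouse. With so few mice such separation can easily arise by chance, and its share among all genes was not counted. It therefore describes the values and is not a test.

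Among the claudins 12 of 21 were tested, 1 rose and 1 fell. Their median log2 ratio was 0.02, and they ranged from -0.64 to 1.45. Cldn8, a claudin known from the colon and the distal nephron, where it seals against ions, was the member with the largest difference. Its probe read 457 and 729 in organoids of mice 1 and 2, against 247 and 180 in crypts. Both organoid values lay above both crypt values. The log2 ratios were 0.89 and 2.01, giving a mean of 1.45 ± 0.80 (SD, n = 2; 2.73-fold; adjusted p = 0.0361 by limma), with a 95% interval from 0.74 to 2.16. The size therefore rests in large part on mouse 2, and in mouse 1 alone it was 0.89. The crypt readings were also dim, although well above background in 4 of 4 channels, so the size of the rise is uncertain. With the scanner software's ratio the log2 ratio was 2.76.

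Cldn7, the claudin that binds EpCAM and lies along the basolateral membrane of intestinal cells, fell in organoids. Its intensity was 50016 and 43001 in organoids, against 76451 and 68097 in crypts, with no overlap. The log2 ratio was -0.64 ± 0.04 (SD, n = 2; 1.56-fold lower; adjusted p = 0.0407 by limma), and the mice gave -0.61 and -0.66. The call was lost in 5 of 10 other settings, and with median centring the ratio was -0.18. Epcam itself, the gene of the surface protein to which claudin-7 binds, read 28323 and 25915 in organoids, against 43753 and 37942 in crypts. Its log2 ratio of -0.59 ± 0.05 did not pass (adjusted p = 0.0508 by limma).

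The pore-forming claudins are Cldn2, the cation and water pore of the crypt, and Cldn15, the sodium pore of the small intestine. Cldn15 read 16175 and 17116 in organoids, against 23510 and 24897 in crypts. Its groups did not overlap and both mice gave -0.54 (SD 0.00), yet it did not pass (adjusted p = 0.0617 by limma). The single arrays agreed less closely, from -0.76 to -0.33, and with median centring the ratio was -0.16. Cldn2 read 3727 and 4005 in organoids, against 4109 and 4800 in crypts, a log2 ratio of -0.20 ± 0.09 (adjusted p = 0.396 by limma).

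The sealing claudins Cldn3 and Cldn4 differed between the mice. Cldn3 read 28680 and 34839 in organoids, against 28768 and 24458 in crypts. In mouse 1 its log2 ratio was -0.00 and in mouse 2 it was 0.51, so the mean of 0.25 ± 0.36 lay within the spread (adjusted p = 0.415 by limma). Cldn4 read 402 and 469 in organoids, against 389 and 192 in crypts. Both organoid values were higher, but the log2 ratios of 0.05 and 1.29 gave a mean of 0.67 ± 0.87 that did not pass (adjusted p = 0.232 by limma). Its 95% interval, from -0.10 to 1.43, was the widest of the uncalled genes. The other tested claudins lay near 0, with log2 ratios of 0.04 for Cldn19, 0.04 for Cldn9, 0.03 for Cldn12, 0.01 for Cldn14, -0.05 for Cldn5 and -0.05 for Cldn23. Of these, Cldn19 read 195 and 210 in organoids, against 199 and 194 in crypts, and Cldn5 read 194 and 203, against 205 and 206. The Gja1 probe, not well above background in any channel, read 125 and 124 in organoids, against 122 and 119 in crypts. Ratios near 0 from such dim probes say little about a difference.

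The calls for Cldn8 and Cldn7 each rest on 1 oligonucleotide of 60 bases, whose first 30 bases are shown to identify what hybridised. In mm9, per the files, the Cldn8 probe lies at chr16:88561135-88561194 on the minus strand. The Cldn7 probe spans chr11:69780780-69781089 on the plus strand, a stretch of 310 bases for 60 probe bases, so its target is not contiguous in the genome. Lower case is used throughout because no position is singled out.
Cldn8 probe: aaagatgttgtccatatgtatttcaactcc
Cldn7 probe: taaccccttgacgcccatgaacgttaagta

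**Figure D2:**
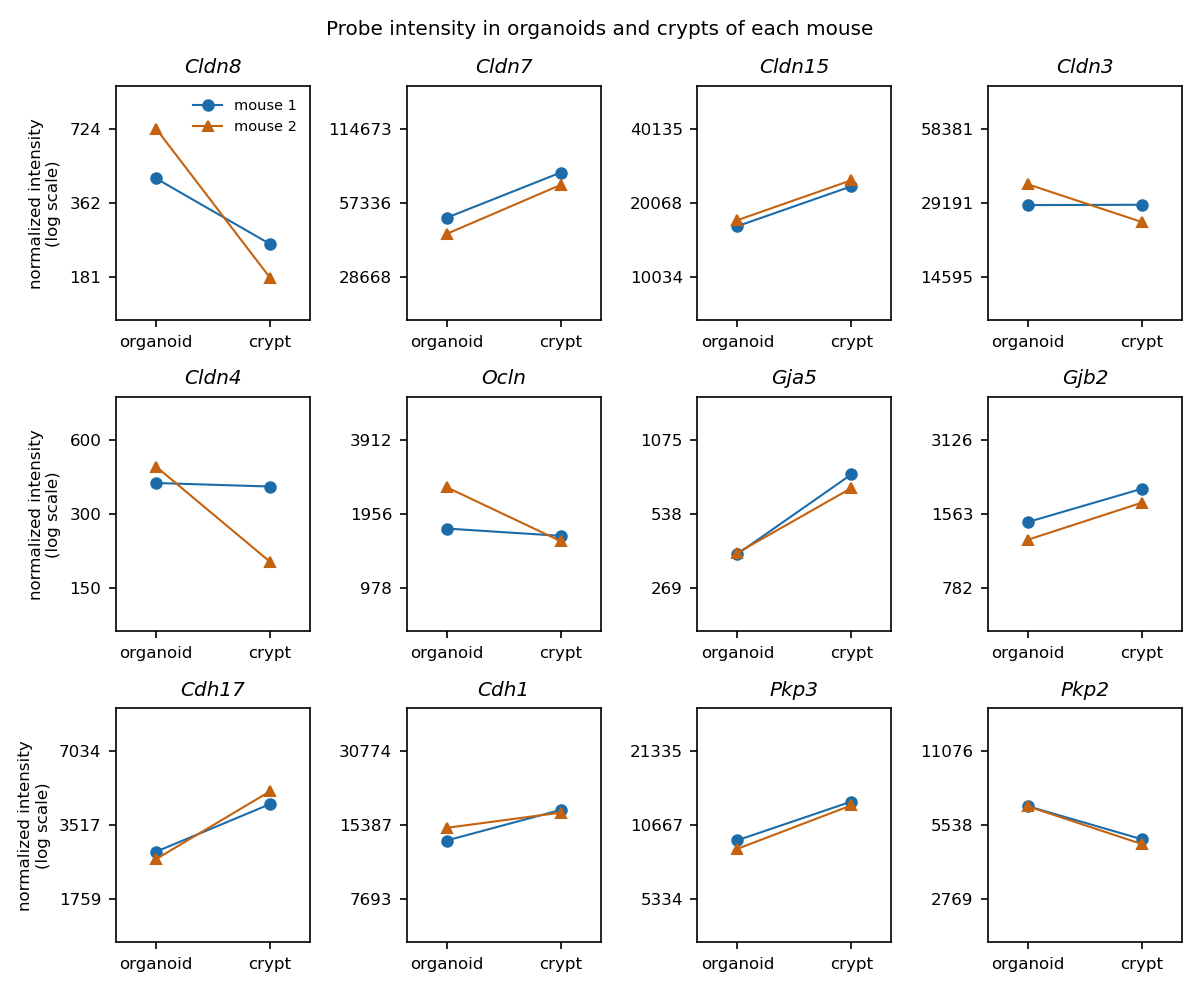
Normalized probe intensity (vertical axis, log scale with equal span in every panel) in organoids (left) and crypts (right) for 12 junction genes. Each line joins the organoid and the crypt value of 1 mouse. Lines slope down to the right in both mice for Cldn8, Pkp2 and Ocln, the last only slightly in mouse 1. They slope up in both mice for Cldn7, Cldn15, Gja5, Gjb2, Cdh17, Cdh1 and Pkp3. Cldn3 and Cldn4 are nearly flat in mouse 1.

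All 6 of the other tight junction genes were tested and none passed in limma. At an unadjusted p under 0.05 there was 1, Marveld3. Their median log2 ratio was -0.16. The 3 MARVEL genes did not point the same way. Ocln, occludin itself, read 1710 and 2519 in organoids, against 1597 and 1519 in crypts. Both organoid values lay above both crypt values, and its log2 ratios of 0.10 and 0.73 averaged 0.41 ± 0.45 (adjusted p = 0.238 by limma). Marveld2, tricellulin, which sits where 3 cells meet, read 1332 and 1261 in organoids, against 1395 and 1532 in crypts (log2 ratio -0.17 ± 0.15, adjusted p = 0.483 by limma). Marveld3 read 1222 and 1323 in organoids, against 1713 and 2239 in crypts. Its groups did not overlap, and its log2 ratio of -0.62 ± 0.19 fell short of the threshold (adjusted p = 0.0554 by limma).

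F11r encodes the junctional adhesion molecule JAM-A. It read 31213 and 30601 in organoids, against 41436 and 28409 in crypts, and its log2 ratio of -0.15 ± 0.36 had opposite signs in the 2 mice (adjusted p = 0.647 by limma). The scaffold genes Tjp1 and Tjp3 encode zonula occludens proteins. Tjp1 read 835 and 926 in organoids, against 798 and 703 in crypts (log2 ratio 0.23 ± 0.24, adjusted p = 0.386 by limma). Tjp3 read 13994 and 13339 in organoids, against 16089 and 18833 in crypts. The 2 groups of Tjp3 values did not overlap, and the log2 ratio was -0.35 ± 0.21 (adjusted p = 0.197 by limma).

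Promoter windows of RefSeq (GRCm38.p6) were available for 22 of the 33 tested genes, 35 windows in all, each holding the 250 bases before an annotated start. They were searched on both strands for CAGGTG, the E-box bound by Snail and ZEB repressors, which are known to repress junction genes such as Cdh1, Ocln and claudins. It stood in 10 of the 35 windows (28.6%), of Cldn4, Cldn7, Cldn14, F11r, Gjb1, Gjb2, Ocln, Pkp4 and Tjp3, against 17.2% of the 32851 windows of all genes. TATAAA, the letters of the TATA box, stood in 5 windows (14.3%), against 12.4% of all windows. They lay 35 and 29 bases before the start in Cldn2 and Gjb1, 70 in Gja10, and 223 and 250 in Marveld2. The Marveld2 windows overlap and share the same site. CAAAGTCCA (HNF4A), TTTATGG (CDX2), CTTTGAT (TCF/LEF) and AACCNGGTT (GRHL2) stood in none, and in 0.384%, 2.43%, 3.21% and 0.24% of all windows. The 2 motifs that were found do not overlap each other in the windows shown. On the arrays Snai1, Zeb1 and Zeb2 were not well above background in any channel. Snai2 was well above background in 4 of 4 organoid channels but 2 of 4 crypt channels, so its size is uncertain. It read 374 and 1321 in organoids, against 197 and 153 in crypts, and did not pass (adjusted p = 0.0669 by limma).

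These 4 windows are shown to set a gene that fell (Cldn7) beside 3 that did not pass. Of the other genes that passed, Cldn8 and Cdh17 had no window, and the Gja5 window held none of the motifs. The window of the first Cldn7 start held none either. Cdh1 had no window. Capitals mark the E-box, read as CAGGTG or, on the other strand, as its complement CACCTG, and in Cldn2 the TATA box. The windows run 5′ to 3′ in the direction of transcription and lie at chr11:69965171-69965420 on the plus strand for the second annotated start of Cldn7, chr5:134946935-134947184 on the minus strand for Cldn4, chr13:100552499-100552748 on the minus strand for the second start of Ocln, and chrX:139800558-139800807 on the plus strand for Cldn2. A match is a run of letters and not a measured binding site.
Cldn7: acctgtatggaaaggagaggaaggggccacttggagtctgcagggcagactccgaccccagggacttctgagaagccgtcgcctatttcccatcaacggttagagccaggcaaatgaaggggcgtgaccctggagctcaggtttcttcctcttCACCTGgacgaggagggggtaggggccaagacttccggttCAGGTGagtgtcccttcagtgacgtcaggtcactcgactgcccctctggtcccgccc
Cldn4: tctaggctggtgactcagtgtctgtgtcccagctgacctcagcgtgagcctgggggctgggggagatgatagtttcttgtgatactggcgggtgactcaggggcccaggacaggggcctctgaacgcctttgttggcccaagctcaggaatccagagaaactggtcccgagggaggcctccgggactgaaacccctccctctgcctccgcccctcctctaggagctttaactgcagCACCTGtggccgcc
Ocln: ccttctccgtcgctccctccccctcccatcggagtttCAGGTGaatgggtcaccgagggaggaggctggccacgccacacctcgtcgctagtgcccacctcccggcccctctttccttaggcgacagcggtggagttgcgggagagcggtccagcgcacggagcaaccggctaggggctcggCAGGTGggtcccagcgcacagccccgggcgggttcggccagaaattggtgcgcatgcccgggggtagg
Cldn2: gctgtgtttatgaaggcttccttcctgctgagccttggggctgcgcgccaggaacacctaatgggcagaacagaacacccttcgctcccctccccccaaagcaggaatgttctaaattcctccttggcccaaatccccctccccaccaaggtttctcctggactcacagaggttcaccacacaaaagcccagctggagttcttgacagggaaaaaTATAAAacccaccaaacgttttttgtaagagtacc

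The Cldn7 window holds 2 E-boxes, 97 and 57 bases before the start. Cldn4 has 1 at 14 bases, Ocln has 2 at 213 and 68 bases, and the TATA box of Cldn2 stands 35 bases before its start. Of these 4 genes Cldn7 fell in organoids, whereas Cldn4, Ocln and Cldn2 had log2 ratios of 0.67, 0.41 and -0.20 that did not pass.

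Among the connexins described 5 of 11 were tested and 1 passed, through a probe named for Gja5 that fell. Their median log2 ratio was -0.38, and 3 of the 5 were below 0. Gjb1 and Gjb2, connexins of liver and of many other epithelia, were lower in both mice without passing. Gjb2 read 1453 and 1231 in organoids, against 1985 and 1743 in crypts (log2 ratio -0.48 ± 0.04, adjusted p = 0.0827 by limma). Gjb1 read 247 and 277 in organoids, against 336 and 344 in crypts (-0.38 ± 0.09, adjusted p = 0.141 by limma). For both genes the groups did not overlap. With the organoid in Cy3 alone, Gjb1 was 0.03.

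Gja5, a connexin known from arterial endothelium and the conduction system of the heart, is represented by a probe whose identity needs care. That probe read 370 and 374 in organoids, against 781 and 687 in crypts. The log2 ratio was -0.98 ± 0.14 (SD, n = 2; 1.97-fold lower; adjusted p = 0.0156 by limma). It was designed on a cDNA clone and lies at chr3:96880117-96880176 in mm9, 22709 bases from the nearest probe designed on the RefSeq transcript. The tested probe on the RefSeq transcript, at chr3:96854968-96855027, read 241 and 260 in organoids, against 245 and 259 in crypts, a log2 ratio of -0.01 ± 0.02. Of the 4 probes named for Gja5, the clone probe alone fell, but the tested transcript probe was dim and its ratio could be drawn toward 0. The mean over the 2 tested probes, -0.49, did not pass. The second probe on the RefSeq transcript was well above background in 2 of 4 channels of each tissue (0.11), and the fourth, 1358264 bases away, in none. The first 30 bases of both probes are shown because the call depends on which was read.
Gja5 clone probe: tgtccccagtggccctgtgtgttgacagag
Gja5 transcript probe: agatgggaagattgtcctccagggcaccct

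The remaining tested connexins were Gja4, known from endothelium, at a log2 ratio of 0.02, and Gja10 at 0.06. Both probes were dim. Gja4 read 258 and 288 in organoids, against 274 and 266 in crypts. Gja10 read 207 and 202 in organoids, against 198 and 195 in crypts, and was well above background in 2 of 4 organoid channels. Of 13 endothelial marker genes 5 were tested and none passed in limma, with 1 at an unadjusted p under 0.05 and a median log2 ratio of 0.05. That 1 was Flt1, a receptor for vascular growth factor, which read 218 and 233 in organoids, against 393 and 299 in crypts (log2 ratio -0.60 ± 0.35, adjusted p = 0.0884 by limma). Pecam1, Cdh5, Tie1, Emcn, Eng, Cd34 and Sox18 were not well above background in any channel. The summed intensity of the tested endothelial markers was 1167 and 1337 in organoids, against 1369 and 1260 in crypts. Each of these markers was dim, from 195 for Sox17 to 393 for Flt1, so the sums are a weak measure of endothelial RNA. Their part in the connexin values was not tested.

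Of the desmosomal cadherins 2 of 9 were tested and none passed in limma, nor did any have an unadjusted p under 0.05 (0 of 2). Dsg2 and Dsc2, the desmoglein and the desmocollin of simple epithelia, were the ones measured. Dsg2 read 1799 and 2213 in organoids, against 2122 and 1672 in crypts, and its log2 ratio of 0.08 ± 0.45 had opposite signs in the 2 mice (adjusted p = 0.836 by limma). The other 3 tested Dsg2 probes gave -0.26, -0.33 and -0.44. Dsc2 read 1770 and 1562 in organoids, against 2111 and 1926 in crypts. Its groups did not overlap, and the log2 ratio was -0.28 ± 0.03 (adjusted p = 0.242 by limma).

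All 6 genes of the desmosomal plaque were tested and none passed in limma, although 2 of them, Pkp2 and Pkp3, had an unadjusted p under 0.05. These plakophilins, which bind desmosomal cadherins and recruit desmoplakin, lay on opposite sides of 0. Pkp2 read 6614 and 6606 in organoids, against 4852 and 4637 in crypts, a log2 ratio of 0.48 ± 0.05 (adjusted p = 0.0818 by limma). Pkp3 read 9261 and 8547 in organoids, against 13314 and 12855 in crypts, a log2 ratio of -0.56 ± 0.05 (adjusted p = 0.0587 by limma). Neither gene's groups overlapped. Of the other plakophilins, Pkp1 was at -0.24 and Pkp4 at 0.22.

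Jup encodes plakoglobin, the armadillo protein that links the cadherins to desmoplakin. It read 687 and 596 in organoids, against 749 and 716 in crypts (log2 ratio -0.20 ± 0.10, adjusted p = 0.415 by limma). Dsp, desmoplakin, which reaches out to the keratin filaments, read 4152 and 5201 in organoids, against 5904 and 4575 in crypts. Its mice had opposite signs, -0.51 and 0.18 (mean -0.16 ± 0.49, adjusted p = 0.677 by limma).

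Of the cadherins Cdh1 and Cdh17, 1 of 2 fell. Cdh17, the intestinal cadherin that joins enterocytes along their lateral sides, read 2743 and 2559 in organoids, against 4287 and 4834 in crypts. The groups did not overlap. Its log2 ratio was -0.78 ± 0.19 (SD, n = 2; 1.72-fold lower; adjusted p = 0.0308 by limma), and the mice gave -0.64 and -0.92. The call was lost in 5 of 10 other settings, at ratios from -0.83 to -0.52. Its probe lies at chr4:11744272-11744331 on the plus strand in mm9, and its first 30 bases are shown because this call too rests on 1 probe.
Cdh17 probe: cagctgtttaatttcatccaaaatgtgaac

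Cdh1, E-cadherin, the main cadherin of the adherens junction, read 13330 and 15009 in organoids, against 17761 and 17313 in crypts. The values did not overlap, and the log2 ratio of -0.31 ± 0.15 did not pass (adjusted p = 0.222 by limma). Its 95% interval ran from -0.66 to 0.04, and that of Cdh17 from -1.14 to -0.42. These intervals overlap, and a difference between the 2 genes was not tested.

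Several junction genes were read by more than 1 probe. Of 9 genes with 2 or more tested probes, the probes of 7 had the same sign and those of Dsg2 and Pkp4 did not. The second probe of Marveld3 gave -0.42, beside -0.62 for the probe of higher intensity, and the second Ocln probe gave 0.24, beside 0.41. Among the 4 genes that passed, only Gja5 had a second tested probe.

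**Figure D3:**
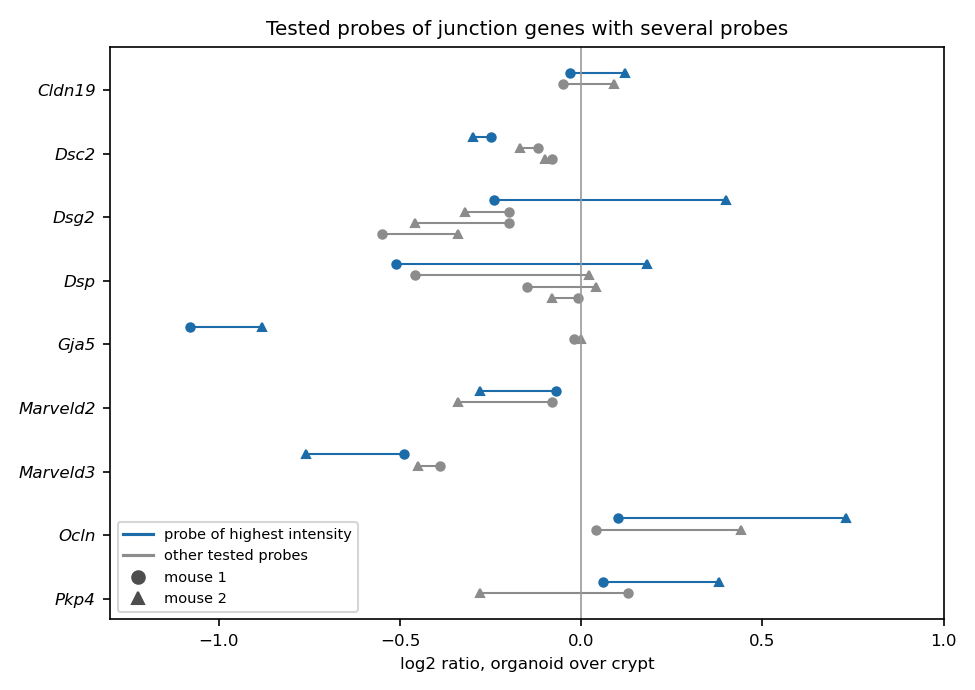
Log2 ratio of organoid over crypt (horizontal axis) for each tested probe of the 9 junction genes that have several. Blue lines are the probe of highest intensity, which stands for the gene, grey lines are the others, and circles and triangles are mice 1 and 2. The 2 Gja5 probes lie apart, at -0.98 and -0.01, whereas the Marveld3 and Dsc2 probes lie on the same side of 0.

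How far the 4 calls depend on the processing can be read from the ratios under other settings. Over 10 settings Cldn8 ranged from 1.01 to 2.76, Cldn7 from -0.76 to -0.18, Cdh17 from -0.84 to -0.52 and Gja5 from -1.45 to -0.49. All 4 kept their sign in all 10, but in some settings the ratio was bound to be the one reported. These were no filter on dim probes and the fits that took the 4 arrays singly. For genes with a single tested probe, the mean over probes was another. None of the 4 passed when each array was centred on its median in place of loess, or on the arrays with the organoid in Cy3 alone. Median centring moved the median of all genes to 0.17. Relative to it the junction genes' median was -0.10. Under that centring the medians of the other tight junction genes (0.15), the desmosomal plaque genes (0.08) and the desmosomal cadherins (0.13) lay above 0, while those of the connexins (-0.25) and of Cdh1 and Cdh17 (-0.24) lay below. With the organoid in Cy3 alone the connexin median was 0.00.

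**Figure D4:**
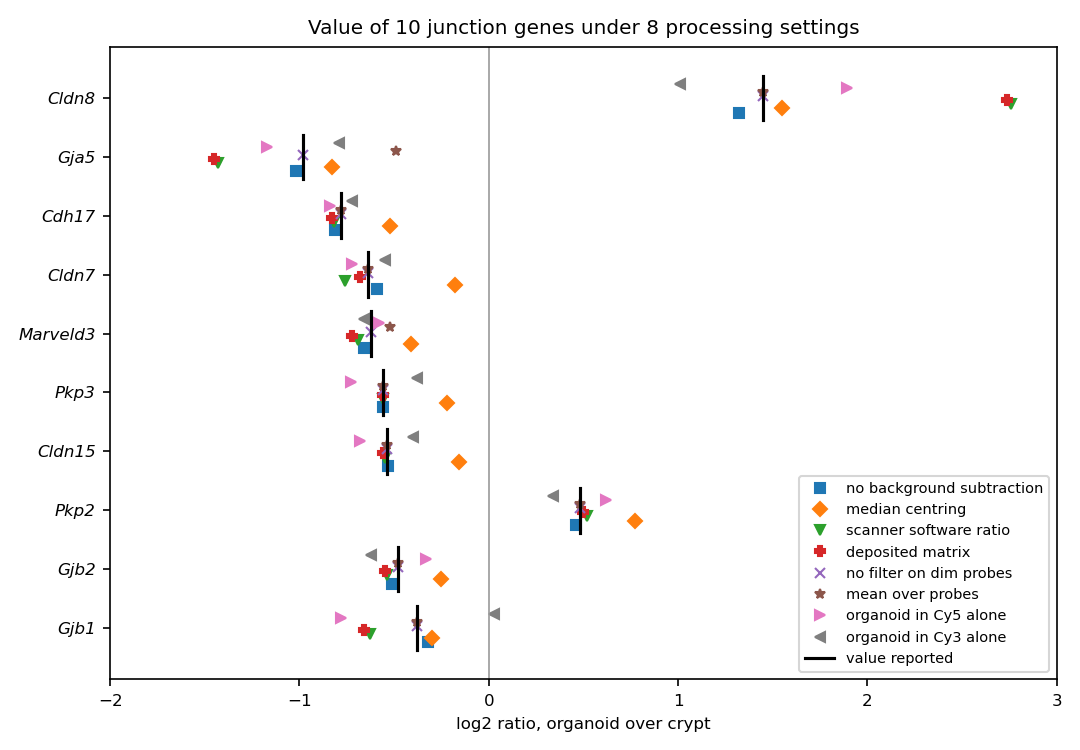
Log2 ratio of organoid over crypt (horizontal axis) for the 4 junction genes that passed and the 6 whose interval did not include 0, under 8 processing settings (coloured symbols). Black bars are the values reported. Of these 10 genes Gjb1 alone has a symbol across 0, at 0.03 with the organoid in Cy3.

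Genes that work with the junctions were taken from 7 lists, whose values are log2 ratios with the SD of 2 mice. The counts below stand beside 5.43% of all genes tested that rose and 5.49% that fell. An unadjusted p under 0.05 in limma was found for 27.6% of all genes. No list was tested as a whole. Among 17 tested scaffold and polarity genes of the tight junction, 2 rose and 1 fell, with a median log2 ratio of 0.10. Cgnl1, paracingulin, which links junctions to actin and microtubules, rose by 1.61 ± 0.76. Pard6b, a subunit of the apical polarity complex, rose by 0.74 ± 0.10. Arhgef2, a RhoA exchange factor held at tight junctions, fell by 0.90 ± 0.41 on the log2 scale. Of 6 tested genes for other tight junction membrane proteins, none passed in limma and 2 had an unadjusted p under 0.05 (median -0.03).

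Of 15 tested adherens junction genes 3 fell and none rose (median -0.17). Cdhr2 and Cdhr5, the protocadherins that tether the tips of brush border microvilli, were at -1.70 ± 0.09 and -1.68 ± 0.27, and Plekha7, a junction protein that anchors microtubules, was at -0.85 ± 0.42. The members that fell most are thus brush border genes. Of 9 tested desmosome linker and keratin genes, 2 rose and 3 fell (median -0.35). The keratins Krt23 and Krt18 rose by 2.26 ± 0.45 and 1.26 ± 0.36, while Krt20, Krt8 and Krt19 were at -2.75 ± 0.03, -0.90 ± 0.15 and -0.72 ± 0.05. Panx1, a pannexin that forms channels of the plasma membrane, fell and was at -0.61 ± 0.10, and it was 1 of 2 tested genes among the other connexins and pannexins.

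Of 16 tested genes for junction turnover and protease control, 1 rose and 2 fell (median -0.18). Prss8, the membrane protease prostasin, rose by 1.01 ± 0.06. Mylk, the myosin light chain kinase that tenses the actin ring at the junction, was at -2.15 ± 0.23, and Spint1, a protease inhibitor of the cell surface, was at -0.81 ± 0.01. Of 15 tested transcription regulators of epithelial and mesenchymal state, 2 fell and none rose (median -0.23). They were Klf4, a regulator of goblet cell differentiation, at -1.28 ± 0.29, and Ovol2, a keeper of epithelial state, at -1.11 ± 0.19.

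Markers of the cell types in the tissue moved as well. Their counts stand beside 5.43% of all genes tested that rose and 5.49% that fell. Of 12 enterocyte markers 11 fell (median -1.80), of 5 Paneth cell markers all 5 fell (median -1.90), of 7 goblet cell markers 5 fell (median -1.62), and of 6 crypt base stem cell markers 4 rose (median 0.81). The summed intensity of the enterocyte markers was 240286 and 223733 in organoids, against 785864 and 706712 in crypts. In the same order the sums were 85324 and 72452 against 486442 and 327349 for Paneth cells, 92342 and 97627 against 387675 and 359525 for goblet cells, and 41425 and 40680 against 27533 and 26430 for stem cells. The Paneth cell marker Pla2g2a differed widely between the mice, with 68801 and 1404 in crypts and 18392 and 469 in organoids of mice 1 and 2. Its log2 ratios of organoid over crypt were -1.90 and -1.58. The cause of this gap between the mice was not tested. Of 7 pan-epithelial markers 1 rose and 3 fell, summing to 377769 and 386071 in organoids, against 548920 and 497108 in crypts. Of 12 white blood cell markers 3 fell and none rose, summing to 14075 and 16761 in organoids, against 66819 and 68161 in crypts. Nearly all of these sums was Lyz2, at 11668 and 14277 in organoids, against 63638 and 65088 in crypts. The other 11 summed to 2407 and 2484 in organoids, against 3181 and 3073 in crypts. Among them Cd3g and Cd52 fell, each well above background in 0 of 4 organoid channels but 4 of 4 crypt channels. They entered the test through their crypt channels alone, which favours a lower call. The Paneth cell marker Lyz1, another lysozyme gene, read 27384 and 26459 in organoids, against 218171 and 189065 in crypts. Cross-hybridisation between Lyz1 and Lyz2 was not tested. Of 6 tested smooth muscle and stroma markers 1 fell, Acta2. In bulk RNA fewer cells of a type and less RNA per cell cannot be told apart, and the part of these markers in the values of Cldn7, Cdh17, Gja5 and Cldn8 was not tested.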

How the data were processed

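Gene expression was measured with 2-colour Agilent whole mouse genome arrays, 4 arrays on 1 slide. The deposited intensity values are the authors' scanner readings, mean spot signals and local backgrounds in each dye, per the file headers, which also hold the scanner software's log10 ratio of Cy5 over Cy3 and marks (other) for outliers and background. The authors' deposited series matrix holds log2 ratios of Cy5 over Cy3, judged by its correlation with the scanner ratios (r from 0.978 to 0.992). Each of its columns has a median of 0, and the way it was centred is unknown here. Feature Extraction was version 10.2.1.3 per the file headers and 9.5.3 per the submitters' processing notes. RNA was isolated with Trizol per the labels' protocols but with an RNeasy kit per the design text.

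Intensities were corrected with normexp (offset 50) and normalized by loess within arrays in limma 3.58.1 (R 4.3.3). Control spots had weight 0, spots marked as outliers were dropped, and repeated spots were averaged per probe. The dye labels gave the direction, organoid over crypt, and each mouse's dye-swapped pair was averaged. A probe was tested if it was well above background in all 4 channels of 1 tissue (21923 probes, 15538 genes), and a gene was read by its probe of highest mean intensity. The values of the 2 mice entered a two-sided test against 0 by lmFit and eBayes, which had 1 residual and 4.16 prior degrees of freedom. An exact permutation test over 2 mice could not go below 0.5. Channel intensities were additionally quantile-normalized between arrays (Aquantile) and include the offset.

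Organoid channels had 51.7% to 61.9% of probes above background and crypt channels 54.1% to 67.4%. Dye-swapped arrays correlated with r = 0.837 in mouse 1 and 0.850 in mouse 2 over all genes, and with 0.667 and 0.871 over the tested junction genes. The number of arrays and mice limits the precision.

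Of 60 genes that the name rule finds, 5 are not reported here. They stayed in the fit over all genes and are left out of every count over junction genes. The members and the lists were chosen with earlier results of these data known, so no list was tested as a whole. Named with values were the members that passed, a fixed set of well-known members where measured, and of the lists the genes that passed, at most the 4 largest per list. Epcam, Cgn, Snai1, Snai2, Zeb1, Zeb2, Flt1 and Pla2g2a were named after their values were seen. So were Lyz1, Lyz2, Cd3g, Cd52, the fifth keratin that passed and the absent endothelial markers. The intensities of Cldn5, Cldn19, Gja1, Gja4 and Gja10 were likewise added after they were seen. Alternatives changed the background correction, the normalization, the filter, the rule for several probes, the dye orientation and how arrays entered the fit.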

Additional observations from a re-analysis of the deposited data

How the results depend on the processing

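No value that passed the test changed sign under any of 10 settings, although some of these leave the ratio as reported by construction. Counts of junction genes that passed, 1 higher and 3 lower as reported, changed as follows. Median centring gave 0 higher and 0 lower (3 at an unadjusted p under 0.05 in limma), with 224 genes passing in all, and the arrays with the organoid in Cy3 alone gave 0 and 0 (9 unadjusted) with 908 in all. Without the filter on dim probes 0 rose and 1 fell, with 677 in all over more genes tested. The scanner software's ratio and the deposited matrix each gave 1 higher and 1 lower, with 1436 and 1446 genes passing in all. No background subtraction gave 1 higher and 5 lower (1824 in all), and the organoid in Cy5 alone gave 1 higher and 6 lower (2190 in all). With 4 arrays and a dye effect 2 rose and 8 fell (3709 in all), and with the mouse as a random replicate block, added after the data were seen, 2 rose and 7 fell (3080 in all). Both fit single arrays rather than mouse means. The fit with a dye effect takes the arrays as independent units. The block fit allows for a correlation of arrays within a mouse, estimated as 1 value over all genes (0.173). The planned block with a dye effect could not be fitted, and a slide block was not run because 1 slide holds all arrays.

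The median of the junction genes, -0.15, was -0.13 without background subtraction, 0.07 with median centring, -0.17 with the deposited matrix, -0.01 without the filter, -0.06 with the organoid in Cy5 alone and -0.00 in Cy3 alone, and -0.12 to -0.02 for single mice. Besides median centring and Cy3 alone, calls were lost for Cldn7 (-0.76, -0.68 and -0.64) and Cdh17 (-0.82, -0.83 and -0.78) with the scanner ratio, the deposited matrix and no filter, at ratios no smaller than reported. They were also lost for Cldn8 with no filter (1.45) and for Gja5 with the mean over probes (-0.49). Cldn8 was 2.76 with the scanner ratio, and Cldn7 was -0.18 with median centring. Apart from the filter, whose alternative tests more genes, the cause was not tested.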

Other observations

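Several tight junction genes differed more in mouse 2 than in mouse 1. The log2 ratios of organoid over crypt in mice 1 and 2 were 0.89 and 2.01 for Cldn8, 0.05 and 1.29 for Cldn4, -0.00 and 0.51 for Cldn3, and 0.10 and 0.73 for Ocln. Cgnl1 had 1.07 and 2.15. For Cldn4 the organoid values were 402 and 469, against crypt values of 389 and 192, so the mice differed mainly in their crypts. Cgn, which encodes cingulin, went the other way, with 0.04 in mouse 1 and -1.74 in mouse 2. These genes were picked after their values were seen, and with 2 mice the difference between them was not tested.

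Krt8 and Krt18, whose proteins pair in the filaments that desmosomes anchor, changed in opposite directions. Krt18 read 129018 and 154324 in organoids, against 64491 and 53950 in crypts, and Krt8 read 104633 and 107151 in organoids, against 209189 and 185790 in crypts. Processed copies of keratin genes are common, and cross-hybridisation of these probes was not tested.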
